A study of Mus musculus with 4 samples.

Results

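The 2 by 2 design, in which each of 2 transcription factor genes is labelled intact or mutant, gives each gene 1 value that neither mutant gives alone: how far the library with both mutant labels lies from the sum of the single-mutant differences. This value, called the departure here, is log2(TPM + 1) in DKO minus that in Isl1CKO minus that in Pou4f1KO plus that in control, where TPM is RNA abundance scaled for gene length and to transcripts per 1000000. It used 4 of the 4 libraries of the series. A gene was compared if it reached 1 TPM in at least 1 library, which kept 15049 of 25239 genes listed. A departure of 0 means that the differences add on the log scale, and a departure of 1 means that DKO held 2-fold more of (TPM + 1) than that sum. There was 1 library per genotype and thus no replicate spread and no test; every value below describes these libraries by size only.

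ISL1 is a LIM-homeodomain factor and POU4F1 (also called BRN3A) a POU-homeodomain factor, and both are switched on in newborn sensory neurons of the head and trunk, where they turn on sensory genes and turn off genes of earlier or other neuron types. When 2 factors act on the same gene, losing both may add up, may show nothing beyond losing one of them (masking), or may show a change that neither loss gives alone (redundancy). A reversal is the case where losing a factor changes a gene one way in otherwise intact tissue and the other way when the partner is also lost.

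RNA came from cochleovestibular ganglia (CVG), the neurons of hearing and balance beside the otic vesicle, dissected from mouse embryos at embryonic day 11.5. The groups were control, Isl1CKO, taken to be a conditional Isl1 knockout, Pou4f1KO, taken to be a Pou4f1 knockout, and DKO, taken to carry both. The alleles, the Cre driver, the genotype of the control embryos, their sex and the number of embryos in a library are not given in the sources used here. Aligned sequence came to between 13.6 and 16.6 gigabases a library, which put the mean coverage of genes at 1 TPM between 4.95 and 5.93. Of 6 neuron markers read, 5 varied by less than 2-fold between libraries: Tubb3, a neuronal tubulin, ranged from 2636 to 3017 TPM, and Neurod1, a factor of young otic neurons, from 641 to 941 TPM. The sixth, Prph, the intermediate filament peripherin, stood at 162 TPM in control, 112 in Isl1CKO, 119 in Pou4f1KO, with 61.2 in DKO. In bulk tissue, fewer cells of a type and less RNA per cell cannot be told apart.

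The targeted genes were read first. Pou4f1 stood at 146 TPM in control, 188 in Isl1CKO, 16.6 in Pou4f1KO, with 14.6 in DKO, so both libraries labelled Pou4f1-mutant were low. Isl1 stood at 450 TPM in control, 854 in Isl1CKO, 340 in Pou4f1KO, with 579 in DKO. Isl1 RNA was therefore not lower in the libraries labelled mutant for it, and no part of Isl1 whose loss could be read is given in the sources used here. Every direction below that rests on the Isl1 label refers to libraries labelled Isl1CKO and DKO, whatever their Isl1 RNA. The departure of Isl1 itself was -0.15 and that of Pou4f1 was -0.54.

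Most genes in these libraries lay close to additivity. The departure had a median of -0.01 and an SD across genes of 0.378, and 13373 genes (88.9%) lay within 0.5 of 0. Of the 15049 genes, 379 departed by at least 1 in either direction (2.52%). DKO was above the sum in 212 (1.41%) and below it in 167 (1.11%). The share above was 55.9%, and it was 78.7% when libraries were scaled to their pan-neuronal genes, a scaling that moved the median departure of all genes to 0.30. With no replicates, how many of the 379 come from the spread between embryos or preparations was not tested.

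**Figure D1:**
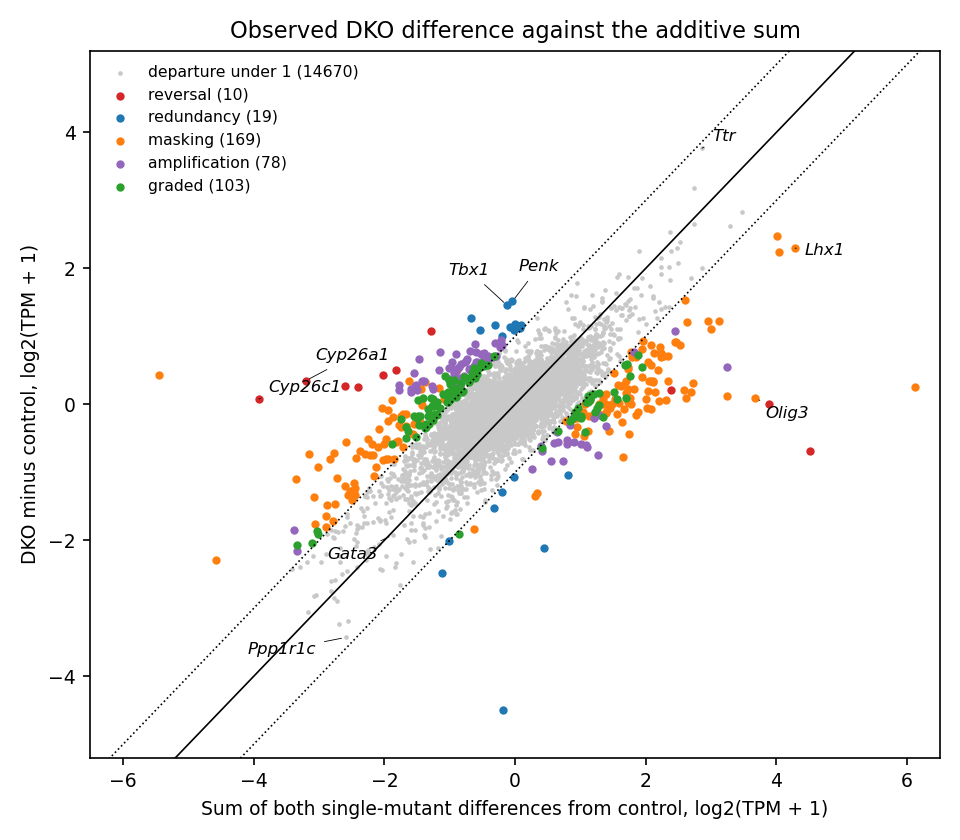
Difference of DKO from control (vertical axis) against the sum of both single-mutant differences from control (horizontal axis), both in log2(TPM + 1), with 1 point per gene compared (n = 15049). The solid line is additivity and the dotted lines mark a departure of 1; Tbx1 and Penk sit above the lines at a sum near 0, Cyp26a1 and Cyp26c1 sit far to the left at a DKO difference near 0, and the orange points at the far left and far right are Hbb-bs and Hbb-b1, neighbouring globin genes with overlapping rows.

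The single mutants lay on 1 side of control in most departing genes. In 194 of the 212 genes above the sum (91.5%) both single mutants were lower than control, beside 33.5% of all genes compared. In 119 of the 167 genes below the sum (71.3%) both were higher than control, beside 30.8% of all genes. The arithmetic favours this, since a low single library raises the departure and a high one lowers it. The 1 control library enters too: a high control value raises the departure and puts both single mutants below control, and a low one does the opposite. DKO was within 2-fold of control in 175 genes above the sum (82.5%) and 146 below it (87.4%), a smaller share than the 96.7% of all genes. Pou4f1KO was the lowest library in 97 of the 212, beside 3374 of all 15049 genes compared. It was the highest in 101 of the 167, beside 4933 of all genes.

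Each departing gene was placed in 1 class. Reversal held 10 genes (0.0664% of those compared), redundancy 19 (0.126%) and masking 169 (1.12%). Masking was split by label: 43 genes for the Isl1 label (0.286%), 102 for the Pou4f1 label (0.678%) and 24 for both (0.159%). The masked label's difference was at least 2-fold against control and under 2-fold, though not always absent, on the other mutant background. A further 78 genes (0.518%) showed amplification, in which a label's difference was under 2-fold against control and at least 2-fold on the other mutant background. The last 103 (0.684%) were graded, with neither pattern.

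A departure can come from 1 library. If a library lies apart and the other 3 lie together, the departure equals its deviation, and its genotype sets the class: DKO gives redundancy, a single mutant gives masking of its label, and control gives masking of both. Across all compared genes, control stood alone in this way in 0.12%, Isl1CKO in 0.106%, Pou4f1KO in 0.365% and DKO in 0.153%. Of the 379 departing genes, 89 (23.5%) had such a lone library, at least 2-fold from each of the others, which lay within 2-fold of each other. DKO stood alone in 15 of the 19 redundancy genes, Pou4f1KO in 50 of the 102 masked genes of its label, Isl1CKO in 15 of 43 and control in 9 of 24. A property of that genotype and a property of that library cannot be told apart in these genes. No reversal gene had a lone library.

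**Figure D2:**
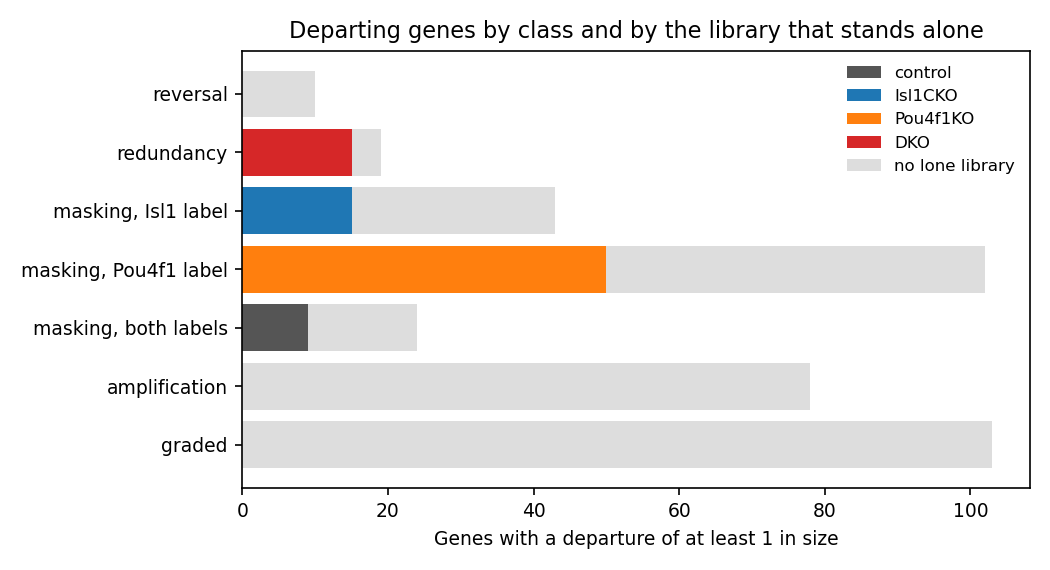
Number of genes with a departure of at least 1 in size (horizontal axis) in each class (vertical axis), with the coloured part giving genes in which 1 library stood apart from the other 3. Pou4f1KO stood alone in 50 of the 102 genes of the masking class of the Pou4f1 label, and no gene of the reversal, amplification or graded classes had a lone library.

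Abundance and annotation also differed along the 379 genes. Only 171 reached 5 TPM in any library, beside 12099 of the 15049 genes compared, and 100 reached 1 TPM in 1 library only. In GENCODE M21, 233 were protein coding, beside 13595 of all genes compared. Small RNA genes gave 86 of the 379: 21.9% of the 392 small RNA genes compared departed by 2-fold, against 1.71% of protein-coding genes. Of the 86, 70 lay on a row that overlaps another on the same strand, beside 1573 of all genes compared. Near the 1 TPM filter, 46 of 733 genes whose highest value was 1 to 1.5 TPM departed by 2-fold, as did 12 of 1224 genes left out with a highest value of 0.5 to 1 TPM. Just inside the threshold lay Scarf2 (1.0002) and Col1a1 (1.0017), and just outside it lay Gsta4 (0.998).

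Among reversal genes above the sum, 2 neighbouring genes of retinoic acid breakdown had the largest departures. Cyp26a1 and Cyp26c1 encode cytochrome P450 enzymes that oxidise retinoic acid, a signal that patterns the hindbrain and the otic vesicle, and so limit where it acts. Cyp26a1 stood at 16.3 TPM in control, 5.07 in Isl1CKO, 4.33 in Pou4f1KO, with 21 in DKO. Cyp26c1 stood at 19.7 TPM in control, 7.95 in Isl1CKO, 2.16 in Pou4f1KO, with 20.8 in DKO. Both genes were low in both single mutants and at or above the control level in DKO.

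On the log2(TPM + 1) scale the Isl1 label of Cyp26a1 went with a difference of -1.51 against control and of 2.04 on the Pou4f1KO background. The Pou4f1 label gave -1.70 against control and 1.85 on the Isl1CKO background. The departure was 3.55; the sum of the single differences would have put DKO at 0.873 TPM. For Cyp26c1 the Isl1 label gave -1.21 and 2.79, the Pou4f1 label gave -2.71 and 1.29, and the departure was 4.00, with an additive value of 0.366 TPM. Over every processing setting run, the departure ranged from 2.56 to 3.91 for Cyp26a1 and from 2.78 to 4.51 for Cyp26c1. Mean read depth over Cyp26a1 was 96.6 in control, 25.1 in Isl1CKO, 25 in Pou4f1KO, with 122 in DKO, so the low values were not at the edge of detection.

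Cyp26a1 (mm10 chr19:37697808-37701536, plus strand, up to 7 exons in GENCODE M21) and Cyp26c1 (chr19:37685680-37693307, plus strand, up to 6 exons) start 12128 bases apart. Their promoters are shown because these neighbours had the largest departures above the sum among genes that overlap no other row. Each run is the 250 bases before the RefSeq start (GRCm38.p6), and capitals mark a DR5 retinoic acid response element, a pair of receptor-binding sites spaced by 5 bases, searched on both strands.
Cyp26a1, chr19:37697558-37697807, plus strand: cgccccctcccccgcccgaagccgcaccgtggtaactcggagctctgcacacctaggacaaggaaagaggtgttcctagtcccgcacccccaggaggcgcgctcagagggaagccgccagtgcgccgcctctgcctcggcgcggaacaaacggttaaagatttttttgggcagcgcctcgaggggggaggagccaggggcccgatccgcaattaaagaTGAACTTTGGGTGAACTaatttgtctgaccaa
Cyp26c1, chr19:37685430-37685679, plus strand: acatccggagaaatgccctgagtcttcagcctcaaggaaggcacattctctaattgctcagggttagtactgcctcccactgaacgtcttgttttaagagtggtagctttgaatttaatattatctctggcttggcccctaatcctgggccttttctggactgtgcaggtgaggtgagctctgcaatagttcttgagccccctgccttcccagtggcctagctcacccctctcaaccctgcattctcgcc
The Cyp26a1 promoter held 1 such element, on the minus strand, its farther end 32 bases before the start, and the Cyp26c1 window held none. Of the 11524 compared genes with a promoter in the RefSeq table, 7 held the element (0.0607%). A match of letters is a description and not a bound site.

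Other genes of the retinoic acid pathway were read beside them, from a list of 18 genes chosen after the Cyp26 values were seen. Besides the 2 Cyp26 genes, Rarg, a retinoic acid receptor, lay above the sum, at 12.4 TPM in control, 8.86 in Isl1CKO, 7.97 in Pou4f1KO, with 14.3 in DKO (departure 1.21). Aldh1a1, which makes retinoic acid, lay below it, at 1.74, 0.2, 6.88 and 0.104 TPM in the same order (departure -1.65). The other 14 lay between -0.98 and 0.56, and the median of the list was 0.07. The third enzyme of the family, Cyp26b1, stood at 6.4 TPM in control, 19.99 in Isl1CKO, 12.3 in Pou4f1KO, with 29.0 in DKO. It was thus highest in DKO, with single differences that nearly added (departure -0.33).

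The other reversal gene that reached 5 TPM without an overlapping row was Prrx2, a homeobox gene of mesenchyme (chr2:30845367-30881247, plus strand). It stood at 12.8 TPM in control, 5.71 in Isl1CKO, 6.01 in Pou4f1KO, with 17.7 in DKO. The Isl1 label gave -1.04 against control and 1.42 on the Pou4f1KO background, and the departure was 2.46. Cpt1b, which encodes a mitochondrial carnitine palmitoyltransferase and whose row overlaps another, had the same shape at 4.98, 1.68, 1.53 and 6.16 TPM (departure 2.66). Gm44502 had the opposite shape, at 0.613 TPM in control, 7.55 in Isl1CKO, 5.93 in Pou4f1KO, with 0 listed in DKO, also on an overlapping row. In all 10 reversal genes both single mutants lay on the same side of control: 7 were lower in both and 3 higher in both. The definition fixes this where both labels reverse, and a large departure favours it in the rest. The class thinned when weak genes counted less: with a pseudocount of 5 in place of 1 it held Cyp26a1 and Gm44502 only.

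**Figure D3:**
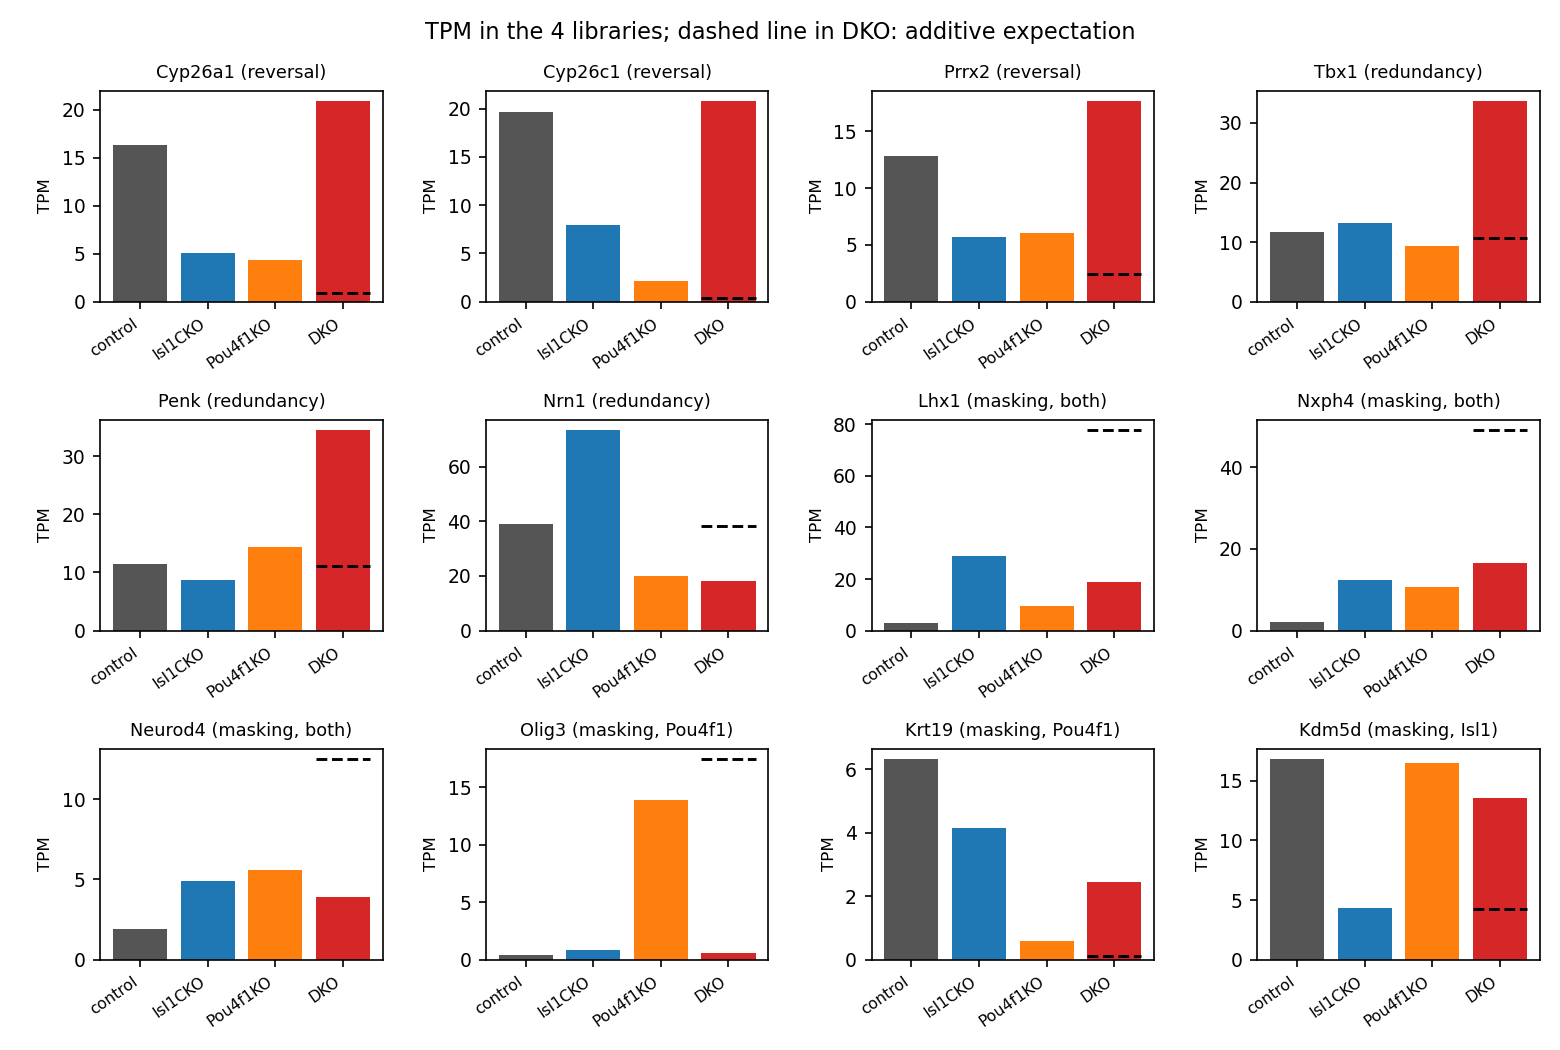
TPM (vertical axis, from 0, own scale per gene) in control, Isl1CKO, Pou4f1KO and DKO for 12 departing genes, 1 library per bar, with the dashed line giving the DKO level expected if the single-mutant differences added. Cyp26a1, Cyp26c1 and Prrx2 are low in both single mutants and high in DKO, Tbx1 and Penk are high in DKO alone, and Lhx1 and Nxph4 are high in all mutants but far below the dashed line in DKO.

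In the redundancy class, where both single mutants lay within 2-fold of control and DKO did not, Tbx1 and Penk were the most stable ordinary genes. Tbx1, a T-box factor of the otic vesicle and pharynx that holds back neurogenesis in the otic epithelium (chr16:18580979-18590671, minus strand), stood at 11.7 TPM in control, 13.1 in Isl1CKO, 9.38 in Pou4f1KO, with 33.8 in DKO. Its single differences were 0.16 and -0.29, and DKO differed from control by 1.46, a departure of 1.58. Penk, which encodes the enkephalin opioid peptides (chr4:4133536-4138815, minus strand), stood at 11.5, 8.76, 14.5 and 34.6 TPM in the same order, a departure of 1.55. DKO was the high library in both, and the other 3 lay within 2-fold of each other. Both genes stayed in the class with a pseudocount of 5 and on the FPKM scale, where 6 and 5 genes in all made it up.

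A pair of weakly expressed pharyngeal factors, picked after their values were seen, had the same shape. Pax9, a pharyngeal pouch factor, stood at 0.342 TPM in control, 0.247 in Isl1CKO, 0.449 in Pou4f1KO, with 2.03 in DKO (departure 1.17). Pax1, its paralog, stood at 0.363, 0.0917, 0.174 and 1.92 TPM (departure 1.63). Both reached 1 TPM in DKO alone, so the filter admitted them through that library only.

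Neuronal genes were among those lower in DKO. Prrxl1 (also called Drg11), a homeobox factor of somatosensory neurons, stood at 4.23 TPM in control, 4.17 in Isl1CKO, 1.61 in Pou4f1KO, with 0.292 in DKO. Its departure of -1.00005 lay at the threshold, and the Pou4f1 label alone gave -0.99993, so its place in the class rests on the last decimals. Nrn1, the neurite growth factor neuritin, stood at 39.0 TPM in control, 73.6 in Isl1CKO, 20.1 in Pou4f1KO, with 18.05 in DKO. The Isl1 label thus gave 0.90 for Nrn1 against control, while Pou4f1KO and DKO lay close together, a departure of -1.05. The departures of Prrxl1 and Nrn1 were under 2-fold with a pseudocount of 5, on FPKM and under pan-neuronal scaling.

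The largest departure of the redundancy class lay on a shared locus. Rpl26, a ribosomal protein gene, stood at 812 TPM in control, 802 in Isl1CKO, 724 in Pou4f1KO, with 34.9 in DKO, while the overlapping Gm15772 stood between 639 and 725 TPM in the other libraries and at 1462 in DKO. Their departures were -4.32 and 1.21, but the departure of their sum was 0.15. The globin genes Hbb-bs (5.88) and Hbb-b1 (-5.87), in the masking class, behaved likewise, with 0.20 for their sum. Both pairs have overlapping rows and are uncertain, since a read can be assigned to either row.

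Masking of the Pou4f1 label was the largest masking group, and most of its genes were higher in the Pou4f1KO library. Of the 102, 71 lay below the sum, and all 71 were higher in Pou4f1KO than in control; 46 had Pou4f1KO as the lone library and 41 reached 1 TPM there only, while 25 reached 1 TPM in DKO. Of the 71, 25 stood in the lists of neural tube factors or Hox genes and 5 in the neuronal lists. Among all 15049 genes compared, these lists held 40, 11 and 298 genes. Of the 40 and the 11, 16 and 8 reached 1 TPM in Pou4f1KO only. DKO lay within 2-fold of control in 84 of the 102 (82.4%), beside 96.7% of all genes.

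Olig3, a bHLH factor of the dorsal neural tube (chr10:19356539-19358604, plus strand), stood at 0.447 TPM in control, 0.799 in Isl1CKO, 13.9 in Pou4f1KO, with 0.542 in DKO (departure -3.58). Atoh1, which specifies rhombic lip neurons and hair cells, stood at 0.191, 0.413, 5.51 and 0.351 TPM (departure -2.52). Hes5, a Notch target of neural progenitors, stood at 4.36 TPM in control, 2.52 in Isl1CKO, 21.1 in Pou4f1KO, with 3.09 in DKO (departure -1.83). Pou4f1KO was the lone high library in all 3 genes. Pax6, Fgf15, Tfap2b and Neurog2, all made in the embryonic hindbrain, were also highest in Pou4f1KO, with departures of -2.19, -2.44, -1.91 and -1.55; that of Pax6 was under 2-fold with a pseudocount of 5. Over the whole list, summed RNA of the 53 neural tube and hindbrain factors came to 266 TPM in control, 248 in Isl1CKO, 393 in Pou4f1KO, with 328 in DKO. Summed RNA of all 26 Hox genes listed came to 36.3, 36.8, 104 and 43.2 TPM. The part of neural tube tissue in the Pou4f1KO preparation in these departures was not tested, and genotype and preparation cannot be told apart here.

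In 3 of the 102 genes Isl1CKO also differed from control by 2-fold, and in all 3 it lay on the opposite side from Pou4f1KO, so that DKO matched Isl1CKO. Insm2, a zinc-finger factor of neuroendocrine and neuronal differentiation (chr12:55598917-55602017, plus strand), stood at 4.09 TPM in control, 0.228 in Isl1CKO, 12.6 in Pou4f1KO, with 0.429 in DKO. The Pou4f1 label of Insm2 gave 1.42 against control and 0.22 on the Isl1CKO background, while the Isl1 label gave -2.05 and -3.26, a departure of -1.20. That departure fell under 2-fold with a pseudocount of 0.1 or 5 and under pan-neuronal scaling, where it was between -1 and -0.90. Robo3, an axon guidance receptor of commissural neurons (chr9:37416045-37433175, minus strand), stood at 4.12, 1.43, 12.2 and 1.001 TPM (departure -1.65). The third was Aldh1a1, given above. Each was thus highest in Pou4f1KO and lowest in the 2 libraries labelled Isl1-mutant.

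The other 31 genes masked for the Pou4f1 label lay above the sum, all of them lower in Pou4f1KO than in control, and Pou4f1KO was the lone library in 4. Krt19, an epithelial keratin (chr11:100140811-100145926, minus strand), stood at 6.34 TPM in control, 4.13 in Isl1CKO, 0.583 in Pou4f1KO, with 2.46 in DKO (departure 1.64). Col9a1, a collagen of cartilage and the otic region, stood at 76.7, 44.9, 32.4 and 53.6 TPM (departure 1.47). Epithelial genes were among the others: Krt18 departed by 1.25, Cdh1 by 1.06, and Otx1, an otic and brain homeobox gene, by 1.48; with a pseudocount of 5 those of Krt19, Cdh1 and Otx1 were under 2-fold. In these 5 genes control was the highest library and Pou4f1KO the lowest, and DKO lay between the single mutants in all but Col9a1, in which it lay between Isl1CKO and control. On the Isl1CKO background the Pou4f1 label still gave -0.97 in Krt18 and -0.93 in Cdh1, just under 2-fold. Summed RNA of all 20 surface ectoderm and epithelium markers listed was 423 TPM in control, 253 in Isl1CKO, 86.4 in Pou4f1KO, with 93.3 in DKO. The part of epithelium in these departures was not tested.

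Masking of both labels, where each single mutant differs from control by 2-fold and a second mutant label changes that by under 2-fold, held 24 genes. In 13 of the 24, DKO lay within 2-fold of control, beside 96.7% of all genes. One member was the LIM-homeobox gene Lhx1, a factor of hindbrain and spinal interneurons. Lhx1 (chr11:84517975-84525534, minus strand) stood at 3.05 TPM in control, 28.8 in Isl1CKO, 9.72 in Pou4f1KO, with 18.9 in DKO. Its differences from control were 2.88, 1.4 and 2.30, so DKO fell 1.99 short of the sum, which would have been 77.9 TPM. The neighbouring Lhx1os, on the opposite strand (chr11:84525660-84535831), stood at 3.01, 26.8, 8.52 and 17.9 TPM (departure -1.80). Lhx1 and Lhx1os thus kept the same order of libraries, with DKO between the single mutants. On the Pou4f1KO background the Isl1 label still gave 0.89 in Lhx1 and 0.99 in Lhx1os, just under 2-fold.

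Nxph4, a secreted ligand of neurexins, stood at 2.13 TPM in control, 12.4 in Isl1CKO, 10.7 in Pou4f1KO, with 16.4 in DKO (departure -1.53), with control the lone low library. Neurod4, a bHLH factor of differentiating neurons, stood at 1.88, 4.91, 5.59 and 3.88 TPM (departure -1.47). Shh, the midline morphogen, showed the mirror shape at 3.66 TPM in control, 0.987 in Isl1CKO, 0.906 in Pou4f1KO, with 0.926 in DKO (departure 1.25). Control alone stood apart in Nxph4 and Shh. In Shh the mutants differed from control by -1.23, -1.29 and -1.28, so the departure was about the size of that distance. In Nxph4 they differed by 2.10, 1.90 and 2.48, and the departure was smaller in size than each of these. The departures of Nxph4 and Neurod4 were under 2-fold with a pseudocount of 5.

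Masking of the Isl1 label was of another make: 27 of its 43 genes were short RNAs by name, 11 were protein coding and 29 had an overlapping row. Of all 15049 genes compared, 13595 were protein coding and 1573 had an overlapping row. The clearest members of this class were the 4 Y-linked genes on the list of sex-linked genes, all of which departed. Kdm5d, a Y-linked histone demethylase, stood at 16.9 TPM in control, 4.34 in Isl1CKO, 16.5 in Pou4f1KO, with 13.5 in DKO (departure 1.47). Eif2s3y departed by 1.43, Ddx3y by 1.27 and Uty by 1.27, and Isl1CKO was the lone low library in all 4; with a pseudocount of 5 the departures of Ddx3y and Uty were under 2-fold. Xist, made from the inactive X chromosome, was highest in that library, at 195 TPM against 127 to 138 in the others (departure -0.73). The part of embryo sex in the other departures of this group was not tested. Pnp2, a purine nucleoside phosphorylase, had the same low Isl1CKO library at 7.57 TPM in control, 2.61 in Isl1CKO, 6.48 in Pou4f1KO, with 9.03 in DKO (departure 1.67).

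The 181 genes of amplification and graded classes leaned above the sum, with 127 above, of which 119 were lower in both single mutants. DKO was within 2-fold of control in 121 of the 127 (95.3%), near the share of all genes. The mesenchyme list gave 5 of the amplification and 4 of the graded genes. Twist2, a bHLH factor of mesenchyme and dermis, stood at 5.05 TPM in control, 2.30 in Isl1CKO, 3.02 in Pou4f1KO, with 8.61 in DKO (departure 2.13). Its paralog Twist1 stood at 29.4, 16.8, 17.6 and 30.8 TPM (departure 1.54). Sulf1, a heparan sulphate sulphatase, stood at 50.4, 32.1, 25.3 and 57.1 TPM (departure 1.78). These 3 genes were low in both single mutants and at or above control in DKO, the order seen for Cyp26a1 and Prrx2, with smaller differences. Bmp4, a signal of the otic epithelium and mesenchyme, was likewise low in both single mutants at 4.2, 1.92, 2.46 and 5.6 TPM (departure 1.77, under 1 with a pseudocount of 5).

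Another shape within these classes was a loss in Pou4f1KO that was partly absent from DKO. Oc90, the main otoconial matrix protein of the otic epithelium, stood at 128 TPM in control, 115 in Isl1CKO, 12.8 in Pou4f1KO, with 35 in DKO (departure 1.54). Pvalb, the calcium-binding parvalbumin, stood at 13.7, 12.9, 0.535 and 2.30 TPM (departure 1.18). Both genes stayed at control level in Isl1CKO and lay more than 2-fold lower in DKO than in control, so the Pou4f1 label went with lower values on both backgrounds. Lmx1a, a LIM-homeobox factor of the otic epithelium, differed from these, at 36.5, 18.1, 6.26 and 7.97 TPM (departure 1.28). Its DKO level lay near that of Pou4f1KO, and the Isl1 label gave -0.97 against control but 0.31 on the Pou4f1KO background. Pou4f2, a paralog of Pou4f1 in sensory neurons, went the other way: it stood at 2.99 TPM in control, 3.93 in Isl1CKO, 0.781 in Pou4f1KO, with 0.0605 in DKO, further below control than the sum (departure -1.05). The departures of Pvalb and Pou4f2 were under 2-fold with a pseudocount of 5 and on FPKM, and that of Pou4f2 also under pan-neuronal scaling.

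DKO differed from control by at least 2-fold in 504 genes (3.35%). Of these, 280 (55.6%) departed by less than 0.5, 166 by 0.5 to 1 and 58 (11.5%) by at least 1. These genes lay further from additivity than genes at large, of which 88.9% departed by less than 0.5 and 2.52% by at least 1. Of the 24 genes with the largest DKO differences, 12 in each direction, 21 departed by under 1, and the other 3 were Lhx1, Lhx1os and Nxph4.

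In some genes that differed in DKO, DKO lay close to the sum and only 1 label carried a difference. Gata3, a zinc-finger factor of the otic vesicle and auditory neurons, stood at 38.5 TPM in control, 7.39 in Isl1CKO, 49.9 in Pou4f1KO, with 9.43 in DKO (departure -0.05). Pou4f3, the hair-cell paralog of Pou4f1, stood at 15.7, 16.7, 1.29 and 1.31 TPM (departure -0.08). Prdm8, a histone-methyltransferase-family repressor, stood at 3.31, 20.7, 3.45 and 23.9 TPM (departure 0.16). Gata3 and Prdm8 thus followed the Isl1 label and Pou4f3 the Pou4f1 label, on either background.

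In Otol1 both labels went with lower values that nearly added. Otol1, a collagen-like protein of the otoconia, stood at 88.4 TPM in control, 35.4 in Isl1CKO, 25.5 in Pou4f1KO, with 11.8 in DKO, against an additive 9.79 TPM (departure 0.24). In some neuronal genes DKO lay below the sum by less than 2-fold. Scn9a, the Nav1.7 sodium channel of sensory neurons, stood at 66.8, 47.3, 41.0 and 14.6 TPM, against an additive 28.9 TPM (departure -0.94). Ntrk2, the BDNF receptor on which vestibular neurons depend, stood at 72.6, 55.2, 57.2 and 27.5 TPM (departure -0.64). In Scn9a and Ntrk2 each single mutant lay within 2-fold of control and DKO more than 2-fold lower, but the single differences summed to enough that the departure stayed under 1.

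The same question can be put by label, since the difference of a label against control and its difference on the other mutant background share no library. The Isl1 label differed by 2-fold against control in 181 genes (1.20%) and on the Pou4f1KO background in 265 (1.76%). Of the 181, 123 had the same sign on the other background, 59 passed 2-fold there with the same sign, 8 passed it with the opposite sign and 114 stayed under it. The shared 59 were 32.6% of the 181 and 22.3% of the 265. The Pou4f1 label differed by 2-fold against control in 407 genes (2.70%) and on the Isl1CKO background in 316 (2.10%). Of the 407, 320 kept their sign, 137 passed 2-fold with the same sign (33.7% of the 407 and 43.4% of the 316), 8 passed it with the opposite sign and 262 stayed under it.

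Among genes that reached 5 TPM these shares were larger. Of 103 genes past 2-fold for the Isl1 label, 48 (46.6%) passed it with the same sign on the other background, and of 255 for the Pou4f1 label, 118 (46.3%) did. Across all 15049 genes the differences on the 2 backgrounds had a Pearson correlation of 0.25 for the Isl1 label and 0.42 for the Pou4f1 label, and across the 12099 genes at 5 TPM 0.33 and 0.51. Genes are not independent replicates, and libraries of 1 preparation share cell makeup and depth across them, so these are descriptions.

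**Figure D4:**
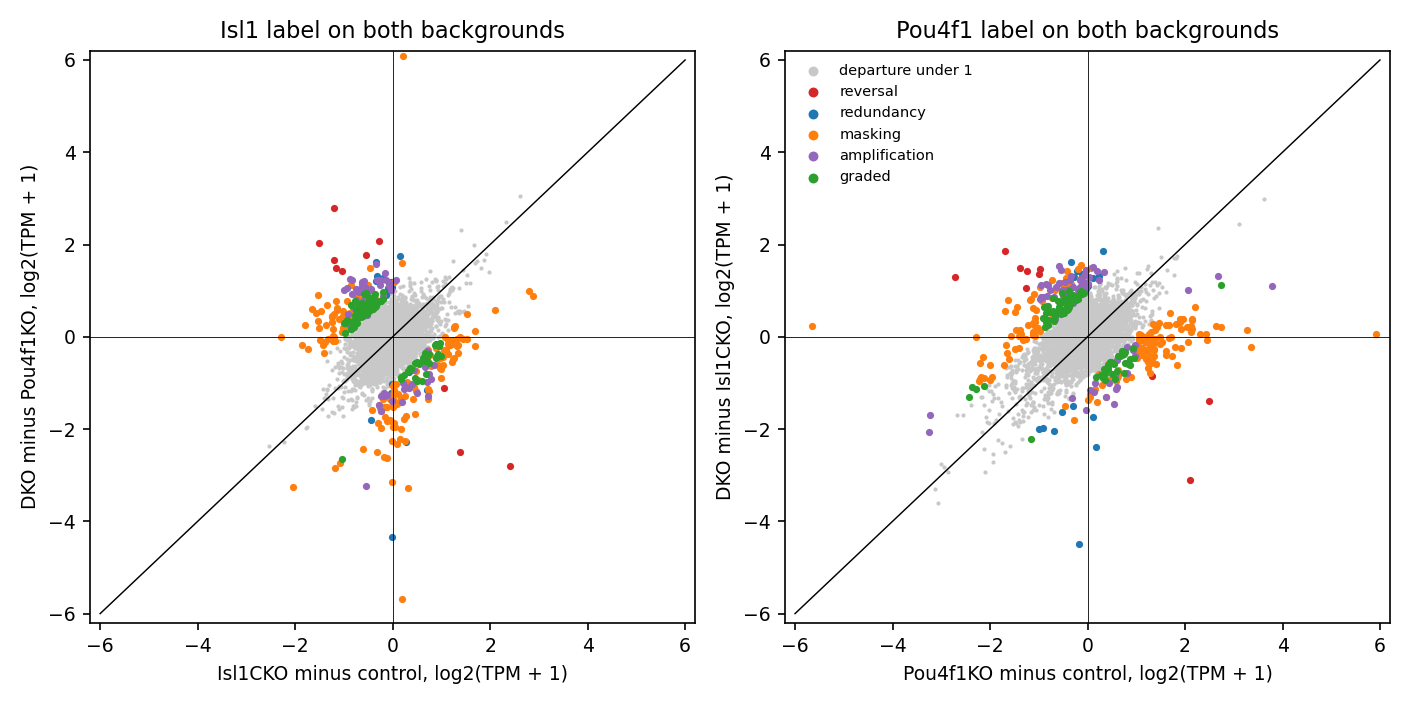
Difference of the Isl1 label (left panel) and of the Pou4f1 label (right panel) against control (horizontal axis) and on the other mutant background (vertical axis), in log2(TPM + 1), 1 point per gene compared (n = 15049 in each panel); the line marks equal differences. In the panel of its masked label, a masking gene lies under 1 in size on the vertical axis. Reversal genes lie in the upper left and lower right, and the orange points near 6 and -6 are Hbb-bs and Hbb-b1.

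By gene group, neuronal genes lay slightly below the sum. The 8 neuronal lists held 298 compared genes, of which 3 departed above and 11 below the sum (4.7% in either direction, beside 2.52% of all genes), with a median of -0.25 beside -0.01 for all genes. Among the 298, 6 ion channel and transmitter genes and 1 synaptic adhesion gene reached 1 TPM in Pou4f1KO only, which favours a negative departure. Gad1 and Glra1, both counted below the sum, were among the 6. The 31 pan-neuronal genes lay between -0.62 and -0.06, and none passed 2-fold. Of the 44 otic neurogenesis factors, 41 lay below 0, with a median of -0.32, 0 departed above and 4 below. Scaling the libraries to the pan-neuronal genes puts the median of that list near 0 by construction. Under it the medians were 0.01 for pan-neuronal genes and 0.00314 for otic neurogenesis factors, beside 0.30 for all genes. The sign of these medians thus rested on the scaling, while both lists stayed below all genes. Genes of apoptosis and p53 (40, median -0.07) and of neurotrophic factors and receptors (20, median -0.11) had no member past 2-fold. Both medians turned positive under that scaling, as did that of all genes. The 33 proliferation genes, such as those of DNA replication, all lay above 0, between 0.08 and 0.48.

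Markers of tissues around the ganglion made up most departures within the lists. Of the 28 mesenchyme genes compared, 10 departed above the sum and 0 below, beside 1.41% and 1.11% of all genes, with a median of 0.96. All 19 endothelium genes lay between 0.46 and 1.12, with a median of 0.77. The 15 macrophage genes all lay above 0, with a median of 0.46, and 3 passed 2-fold. Summed RNA of all 32 mesenchyme genes listed came to 816 TPM in control, 668 in Isl1CKO, 853 in Pou4f1KO, with 979 in DKO. Summed endothelium RNA came to 193, 137, 175 and 230 TPM. DKO was the highest library for both sums and Isl1CKO the lowest.

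Neural tube and Hox genes that departed lay below the sum. Of 40 neural tube and hindbrain factors compared, 18 departed below the sum and 0 above, beside 1.11% and 1.41% of all genes, with a median of -0.87. Of the 40, 16 reached 1 TPM in Pou4f1KO only, so the filter admitted them through that library. Of 26 Hox genes, 11 were compared and 9 departed below (median -1.96), 8 of the 11 reaching 1 TPM in Pou4f1KO only. A gene admitted through Pou4f1KO alone is high there and so tends to a negative departure, so these counts and medians are a description and support nothing. Of all 212 genes above the sum, 9 stood in the lists of otic or surface epithelium, against 1 of the 167 below. These 2 lists held 35 and 14 compared genes. The lists of mesenchyme, endothelium, erythroid cells, macrophages, and cartilage and muscle held 19 above and 0 below. They held 28, 19, 17, 15 and 23 compared genes in that order. Hbb-bs, the globin gene with an uncertain overlapping row, was among the 19. Any marker list held 28 of the 212 and 28 of the 167, beside 222 of all 15049 genes compared. The otic epithelium list as a whole lay near 0: of 35 genes compared, 20 were above 0 and 15 below, 5 departed above and 1 below, and the median was 0.10. The medians of all marker lists kept their sign in every setting run. The part of such tissues in the departures of other genes was not tested.

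**Figure D5:**
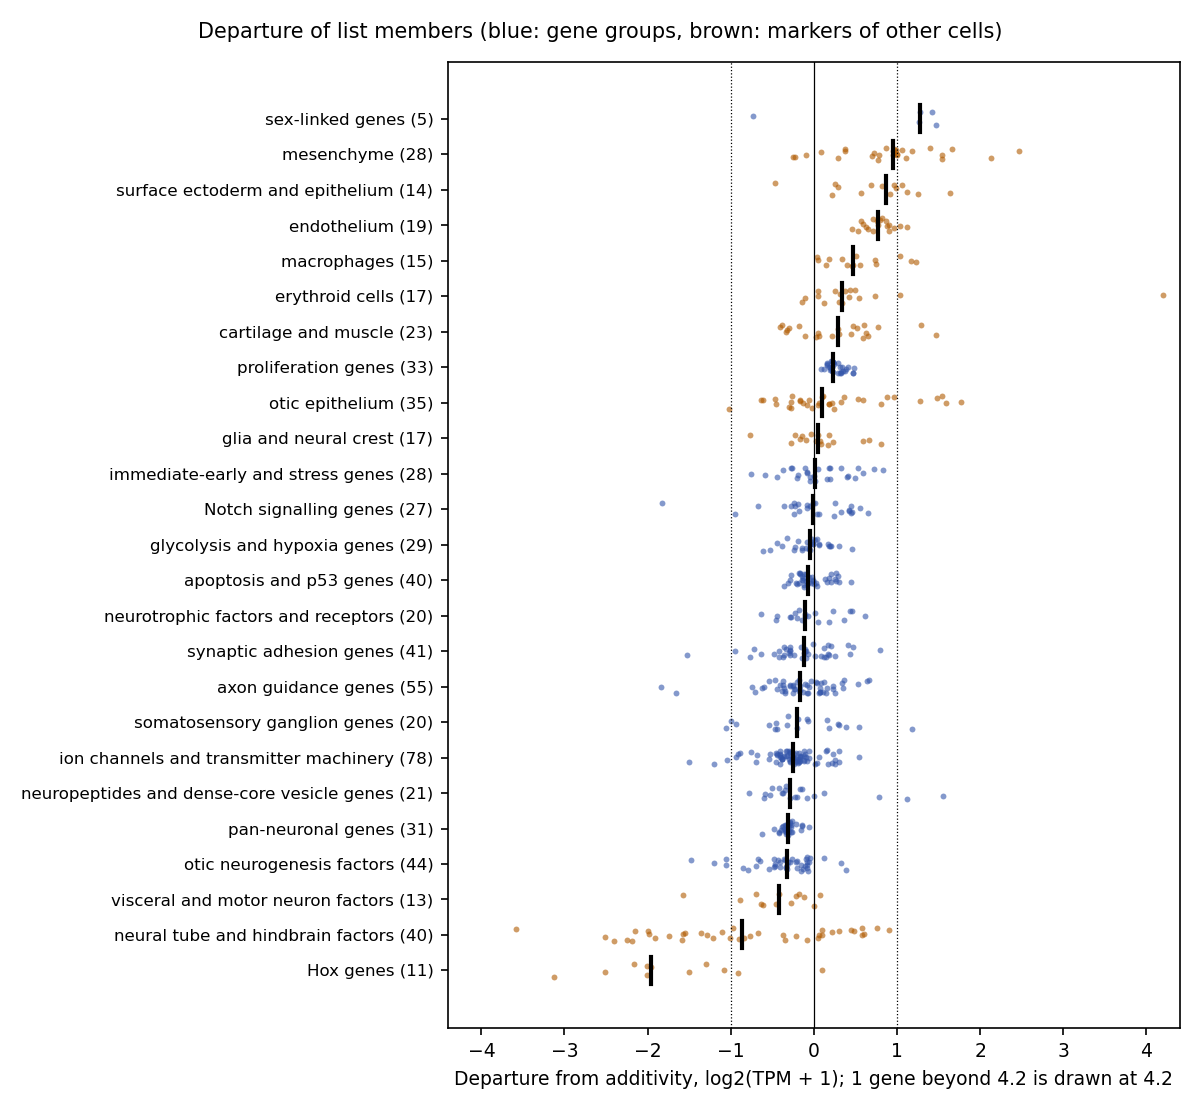
Departure from additivity (horizontal axis, log2(TPM + 1)) of each compared member of 25 gene lists (vertical axis, number of compared genes in brackets), with 1 point per gene and a black bar at the median; dotted lines mark a departure of 1. Hox and neural tube genes lie furthest to the left, with medians of -1.96 and -0.87, and mesenchyme, surface epithelium and endothelium furthest to the right among the marker lists.

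Promoters of the departing genes were searched on both strands for TAATTAA, a core of sites that POU4 factors bind, and for CTAATG, a site type bound by ISL1. Among compared genes with a RefSeq promoter, 213 of 11524 held TAATTAA (1.85%) and 587 held CTAATG (5.09%) in the 250 bases before the start. In the class masked for the Pou4f1 label, 3 of 64 held TAATTAA (4.69%) and 9 of 64 held CTAATG (14.1%). Of the genes below the sum, 11 of 84 held CTAATG (13.1%), and of those above, 5 of 117 (4.27%). None of the 10 redundancy genes with a promoter held either motif. The promoters of Hes5 and Robo3 are shown as members of the masked class with matches; capitals mark CTAATG in Hes5 and TAATTAA, here read on the other strand as TTAATTA, in Robo3.
Hes5, chr4:154960673-154960922, plus strand: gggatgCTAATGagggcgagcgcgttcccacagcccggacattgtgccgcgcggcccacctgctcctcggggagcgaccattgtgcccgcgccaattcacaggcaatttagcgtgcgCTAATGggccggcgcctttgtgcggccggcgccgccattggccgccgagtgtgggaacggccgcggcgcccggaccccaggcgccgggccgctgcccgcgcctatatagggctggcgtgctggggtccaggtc
Robo3, chr9:37433176-37433425, minus strand: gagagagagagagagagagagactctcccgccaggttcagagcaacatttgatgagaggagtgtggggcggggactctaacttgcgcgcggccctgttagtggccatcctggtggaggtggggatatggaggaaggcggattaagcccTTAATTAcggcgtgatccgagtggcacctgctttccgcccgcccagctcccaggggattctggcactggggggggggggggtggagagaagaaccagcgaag
Hes5 held 2 matches, beginning 244 and 133 bases before the start, and Robo3 held 1. These counts are small, the classes were formed from RNA alone, and no binding was measured.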

How the data were processed

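Total RNA of frozen ganglia was made into strand-specific libraries, per the labels' protocols. The submitters' processing notes name mm10 as the build and StringTie, HISAT2, SAMtools, Trimmomatic and FastQC as tools, without versions or settings. The annotation used is not stated there. The authors deposited, per the file headers, TPM (used throughout), FPKM (used as an alternative scale) and coverage, the mean read depth or signal over a gene. No read counts were used here, so no count model was run. Dividing coverage by FPKM gave each library's depth. TPM rows were summed per gene identifier, of which 260 stood on more than 1 row. A pseudocount of 1 was added before log2, which understates differences of weak genes. The threshold was 2-fold.

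Classes were assigned in the order reversal, redundancy, masking, amplification, graded, with the log2 threshold of 1 for every difference. The code of the class assignment was checked on simulated data, with differences planted in well-expressed genes under little noise. That check cannot say how well the classes hold in weak genes or across replicate libraries. The members and lists were chosen with earlier results of these data known, and the retinoic acid list after its values were seen. Genes named by rule were Isl1, Pou4f1, the 12 largest departures in each direction, the 6 largest of each class and direction, with at least 5 TPM, an ordinary symbol, 1 row and no overlapping row, and up to 4 members per list by size. Other genes named were chosen after their values were seen, and some genes the rule names are not reported here. In all, 14 alternatives were planned; the retinoic acid list was the addition. Gene types came from GENCODE M21 and promoters from RefSeq (GRCm38.p6). Python 3.11.15, pandas 2.3.3, numpy 2.4.6 and matplotlib 3.10.9 were used.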

Additional observations from a re-analysis of the deposited data

Results flagged for a closer look

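In 10 genes a label's difference against control and its difference on the other mutant background were both at least 2-fold and of opposite sign. The difference between backgrounds is the departure, and it was not tested, since there was 1 library per genotype. The departures above the sum were 4.00 for Cyp26c1, 3.55 for Cyp26a1, 2.87 for Cstdc5, 2.66 for Cpt1b, 2.46 for Prrx2, 2.36 for Htd2 and 2.33 for Mir6965. Those below the sum were -2.18 for H4c11, -3.89 for Zfp965 and -5.198 for Gm44502.

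Both labels reversed in Cyp26c1, Cyp26a1, Cstdc5, Cpt1b, Zfp965 and Gm44502, the Isl1 label alone in Prrx2 and H4c11, and the Pou4f1 label alone in Htd2 and Mir6965. Of the 10 genes, 5 reached 5 TPM in any library and 5 had an overlapping row, beside 12099 and 1573 of the 15049 genes compared. Without overlapping rows, Cstdc5, Cyp26a1, Cyp26c1, H4c11 and Prrx2 remained.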

How the results depend on the processing

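No paired analysis was possible because each genotype had 1 library and the labels carry no replicate numbers. Counts are given as genes above the sum, below the sum, in redundancy, in masking and in reversal; the reported values were 212, 167, 19, 169 and 10. The pseudocount, which sets the weight of weak genes, moved them in both directions: they were 505, 358, 71, 364 and 100 with 0.1, and 39, 27, 6, 30 and 2 with 5. With 0.5, 335 genes lay above the sum, 38 were in redundancy and 29 in reversal. At least 5 TPM in any library left 102, 69, 10, 71 and 5, fewer genes being tested. FPKM as deposited gave 82, 65, 5, 63 and 3; its values are smaller than TPM, so the same pseudocount weighs more. A fold threshold of 1.5 gave 789, 503, 116, 592 and 91, and one of 3 gave 47, 55, 2, 40 and 2. Scaling to pan-neuronal genes, which moved the median of all genes up, gave 452 above the sum. Without overlapping rows, where fewer genes were tested, 97 lay below the sum, 108 were in masking and 5 in reversal. The other counts stayed within 1.5 times the reported ones. So did all 5 with no filter, a mean of 1 TPM, median-of-ratios scaling, and removal of haemoglobin and ribosomal genes. Summing per symbol repeated the main computation, since identifier and symbol were the same in every row, so its equal counts say nothing about stability.

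Of 131 genes named by rule, 80 departed by 2-fold; all 80 kept their sign in every setting run and 38 stayed past 2-fold in all of them, while 42 fell under it with a pseudocount of 5 and 19 on FPKM. Limits are the lack of replicates, unknown embryo numbers and sex, Isl1 RNA that was not lower in the libraries labelled mutant for it, and low abundance, since 171 of the 379 departing genes reached 5 TPM.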

Other observations

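Noncoding RNAs of RNA-processing enzymes gave some of the largest departures below the sum. Rpph1, the RNA of ribonuclease P, reached 45.9 TPM in Pou4f1KO, against 2.40 in control, 1.34 in Isl1CKO and 3.99 in DKO (departure -2.69). Rmrp, the RNA of ribonuclease MRP, reached 38.5 TPM in Pou4f1KO, against 4.96, 1.92 and 5.35 in those 3 (departure -1.61). Pou4f1KO was the high library in both.

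Afp and Alb passed the 1 TPM filter through control only, and were picked after their values were seen. Afp, alpha-fetoprotein, stood at 2.80 TPM in control, against 0.766 in DKO, 0.206 in Isl1CKO and 0.171 in Pou4f1KO (departure 2.25). Alb, albumin, stood at 1.4 TPM in control and 0.04 in Isl1CKO and was listed at 0 in Pou4f1KO and DKO. Ttr, transthyretin, was lowest in control, at 2.36 TPM, against 7.92 in Isl1CKO, 8.22 in Pou4f1KO and 44.8 in DKO (departure 0.90).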
